A study of Homo sapiens with 6 samples.

Results

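Integrin and laminin chain genes were taken from the deposited expression table as the protein-coding genes whose symbols start with *ITGA* or *ITGB*, or with *LAMA*, *LAMB* or *LAMC* and a digit. Names of integrin-binding proteins and of integrin-like genes were left out. This gave 38 genes of 58735 in the table and of 19951 protein-coding genes, namely 26 integrin chains (18 alpha and 8 beta) and 12 laminin chains (5 alpha, 4 beta and 3 gamma). They were compared between wild strain TPC-1 cells (genotype label WT, 3 libraries) and *RRM2*-OE-TPC-1 cells (3 libraries, called OE below). TPC-1 is an established human papillary thyroid carcinoma cell line. *RRM2*-OE-TPC-1 is the same line after infection with a lentivirus, LV18, in which a CMV promoter drives full-length *RRM2*, the small subunit of ribonucleotide reductase, followed by selection with puromycin. The control cells were not described as infected or selected, so the virus, the selection and the added *RRM2* cannot be told apart, and whether the overexpressing cells were a clone or a pool is not given in the sources used here. The study asked how *RRM2* overexpression changes the transcripts of these cells, and described each cell line as assayed in biological triplicate.

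Integrins are receptors built from an alpha and a beta chain that span the membrane and tie the matrix outside the cell to the actin or keratin cytoskeleton inside. Which matrix protein a receptor binds depends mainly on the alpha chain and on the beta chain it is paired with. Laminins are secreted heterotrimers of an alpha, a beta and a gamma chain, and form the sheet of the basement membrane on which epithelial cells, among them thyroid follicular cells, rest. Laminin names give the chains in order, so that laminin-511 and laminin-521 share the products of *LAMA5* and *LAMC1* and differ in the beta chain.

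The libraries held 14317091 to 17084067 reads on genes. Levels are in FPKM, fragments scaled to gene length and to a depth that the authors set for each library. *RRM2* itself was at 9.17, 9.05 and 8.52 FPKM in TPC-1 and at 50.4, 47.5 and 47.2 FPKM in OE cells. It thus followed the titles of the 6 libraries. Genotype labels of OE replicates 2 and 3 read RRM3 and RRM4. No pair of replicates differed by less than sampling noise, and OE replicate 1 stood somewhat apart from replicates 2 and 3 (chi-square per gene of 5.02 and 5.68, against 1.81 between the latter). Of 8 markers of thyroid follicular cells, 2 reached the minimum for a test, *PAX8* at 69.3 against 58.5 FPKM and *FOXE1* at 4.30 against 3.19 FPKM, whereas *NKX2-1* had 0 reads in all 6 libraries and *TG* and *TSHR* were near 0. Of the epithelial markers *EPCAM* and *CDH1* were near 0 in both groups.

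Two-group tests were made with limma on log2(FPKM + 0.1) across 13621 genes that reached 0.5 FPKM and 10 reads in at least 3 libraries. A gene was called at an adjusted p of at most 0.05 together with an absolute log2 fold change of at least 1, and "rose" and "fell" are used below for such genes only. The p-values set the difference between the groups against the spread among these libraries within each group. Separate infections were not described, so variation between infections is not known to be covered by them. Among all genes tested 1560 (11.5%) were called, 610 higher (4.48%) and 950 lower (6.97%) in OE cells. The adjusted p alone was passed by 9207 (67.6%), of which 4758 were higher and 4449 lower. Of the 38 chain genes 21 were tested, and 7 of these were called. Among these *ITGA6* rose, and *LAMA5*, *LAMB2*, *LAMA2*, *ITGB8* and *ITGAL* fell. A further 10 passed the adjusted p alone, and 4 (*ITGA5*, *ITGAV*, *LAMA3* and *LAMB3*) did not pass it. The FPKM ranges of the groups did not overlap for 17 of the 21 genes, beside 72.2% of all tested genes. Without OE replicate 1 the counts were again 3 integrin and 4 laminin chains. *ITGAL* and *LAMA2* reached the minimum in the TPC-1 libraries alone and therefore had to differ in order to be tested. The median log2 fold change was -0.10 over the 13 integrin chains tested and -0.48 over the 8 laminin chains tested, against 0.011 over all genes tested. Without any of the TPC-1 libraries, when *LAMA2* and *ITGAL* were not tested, these medians were -0.054 to -0.042 and -0.14, and without the filter on low values that of the laminin chains was -0.028. In a bulk library fewer cells that make a transcript and less transcript per cell cannot be told apart.

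**Figure D1:**
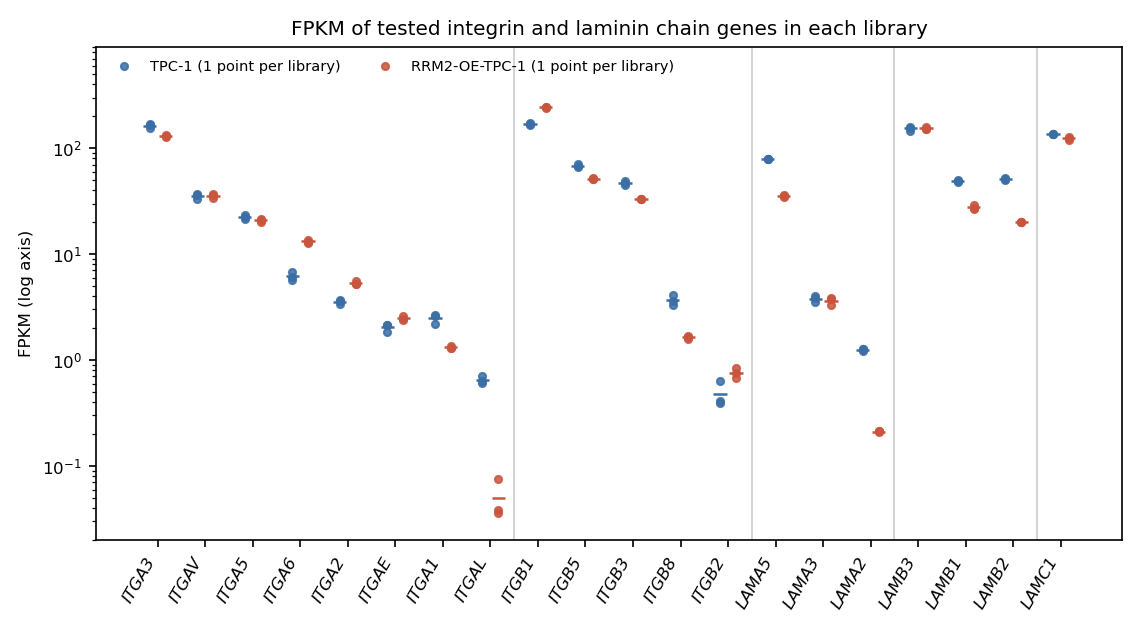
FPKM of 20 tested chain genes in each of the 6 libraries, on a log axis, with 1 point per library and a short bar at the group mean, ordered by chain class and by mean level within it. *ITGB1*, *LAMB3*, *ITGA3* and *LAMC1* lie above 100 FPKM in every library, and *ITGAL* and *LAMA2* lie above 0.5 FPKM in TPC-1 alone.

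Laminin gamma chain *LAMC1* and beta chain *LAMB3*, the laminin genes with the highest means, differed little between the groups. *LAMC1*, the gamma chain of most laminins, was at 136, 135 and 136 FPKM in TPC-1 and at 127, 119 and 124 FPKM in OE cells. These ranges did not overlap, but the difference was small (log2 fold change -0.14 ± 0.0341 (SE), adjusted p = 0.00690, limma), and it passed the adjusted p alone. *LAMC3*, another gamma chain, had 0 reads in each TPC-1 library and 2, 0 and 2 reads in the OE libraries, and was not tested. *LAMB3*, an epithelial beta chain, was at 159, 145 and 155 FPKM in TPC-1 and at 157, 153 and 152 FPKM in OE cells. The ranges overlapped, the log2 fold change was 0.0052 ± 0.0423 (95% confidence interval -0.093 to 0.10) and the adjusted p was 0.919. *LAMA3*, the alpha chain that *LAMB3* joins, was much less abundant, at 3.51, 4.01 and 3.86 FPKM in TPC-1 and at 3.77, 3.29 and 3.87 FPKM in OE cells. These ranges overlapped too (log2 fold change -0.060 ± 0.0867, 95% confidence interval -0.26 to 0.14, adjusted p = 0.558). The sign of both small differences turned when some libraries were left out.

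*LAMA5*, *LAMB2* and *LAMB1*, chains of laminins that *LAMC1* joins, were lower. *LAMA5* (ENSG00000130702, chromosome 20, 62307955 to 62367312, minus strand, GRCh38) encodes the alpha chain of laminin-511 and laminin-521. It was at 79.8, 79.5 and 78.2 FPKM in TPC-1 and at 36.0, 35.4 and 34.4 FPKM in OE cells. The groups lay far apart relative to the spread within them, and *LAMA5* fell by 1.17 on the log2 scale (SE 0.0314, adjusted p = 6.32e-08). *LAMB2* (ENSG00000172037, chromosome 3, 49121114 to 49133118, minus strand), the beta chain of laminin-521, was at 52.5, 49.9 and 51.2 FPKM in TPC-1 and at 20.1, 19.9 and 19.9 FPKM in OE cells. It too was lower in every overexpressing library and fell by 1.36 on the log2 scale (SE 0.0326, adjusted p = 4.29e-08). *LAMB1*, the beta chain of laminin-511, was at 49.9, 48.5 and 48.3 FPKM in TPC-1 and at 29.3, 27.5 and 26.8 FPKM in OE cells. It did not reach the fold threshold (log2 fold change -0.81 ± 0.0404, adjusted p = 1.14e-06). *LAMA5* shares 244 exonic bases with *ADRM1* on the opposite strand, which rose by 1.02 on the log2 scale, and *LAMB1* shares 70 with *DLD*. Whether counting used the strand is not given in the sources used here.

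*LAMA2* (ENSG00000196569, chromosome 6, 128883141 to 129516569, plus strand), the alpha chain typical of muscle and nerve basement membranes, was a low transcript. It was at 1.27, 1.21 and 1.27 FPKM in TPC-1, from 209 to 219 reads, and at 0.214, 0.209 and 0.212 FPKM in OE cells, from 32 to 37 reads. The overexpressing libraries were all far below the control libraries, and below the minimum for a test (log2 fold change -2.11 ± 0.149, adjusted p = 6.68e-06). At a pseudocount of 1 its log2 fold change was -0.89 and it was not called. *LAMA1*, *LAMA4* and *LAMB4* were close to absent, with at most 9 reads in any library, and were not tested. Taken as sums, laminin alpha chains were at 84.2 ± 0.750 FPKM in TPC-1 and 39.1 ± 0.758 FPKM in OE cells, and beta chains at 253 ± 9.41 and 201 ± 3.93 FPKM (SD, n = 3). The alpha sum was almost entirely *LAMA5*, which made up 94.0% of it in TPC-1 and 90.0% in OE cells. Alpha chains are the chains through which laminins bind integrins and other receptors. Their share of all laminin FPKM was 17.1%, 17.8% and 17.1% in TPC-1 and 9.70%, 9.83% and 9.62% in OE cells, so that the groups did not overlap (difference -7.61 percentage points, exact permutation p = 0.1, the smallest that 3 against 3 libraries allow).

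**Figure D2:**
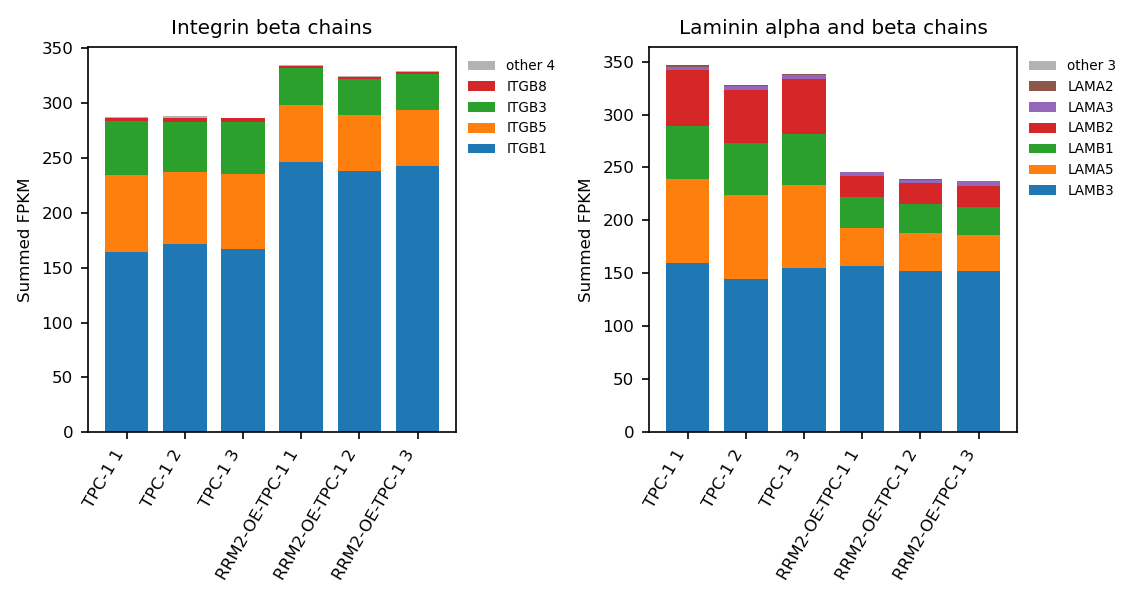
Summed FPKM of integrin beta chains (left) and of laminin alpha and beta chains (right) in each of the 6 libraries, stacked by gene, with the least abundant genes drawn together as "other". *ITGB1* takes 58.3% of the beta chain sum on average in TPC-1 and 73.5% in OE cells. In the right panel *LAMB3* holds its height, whereas *LAMA5*, *LAMB1* and *LAMB2* are lower in all OE libraries.

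Sequence just upstream of transcription starts was read for these chains because laminin chains differed in the outcome of the test. RefSeq promoter entries (GRCh38.p14) were matched by symbol for 26 of the 38 genes, with 33 entries in all since some genes have more than 1 start, and the 250 bases before each start were searched on both strands. The letters searched were TGANTCA (the AP-1 motif), GGAATG (the TEAD motif) and GGGCGG (the Sp1 motif). None of these matches overlapped another motif's match in the windows printed here. TGANTCA was found in 6.57% of all 35116 promoter windows, GGAATG in 11.9% and GGGCGG in 42.6%. Among the 26 genes TGANTCA was found in *LAMA3* and *LAMB3*, GGAATG in *ITGA10*, *ITGA5*, *ITGB1* and *LAMA2*, and GGGCGG in 14 genes. These are counts of genes, where any entry of a gene could hold the match, whereas the shares above are per window. The units differ, and no excess of a motif among the chains was tested. *ITGAL*, *ITGA3*, *ITGB2*, *ITGB3* and *ITGB4* were among the 12 genes without an entry. The TGANTCA matches of *LAMA3* and *LAMB3*, chains that did not pass the test, are shown with 9 bases on each side, followed by the windows of *LAMB3*, of *LAMA5*, which fell, and of *LAMC1*, whose difference was small. Each sequence is printed 5′ to 3′ on the strand of the gene. Parts of a window that lie in a GENCODE 29 exon were left off, which removed 20 bases next to the start from the *LAMB3* window and 0 from the others. Capitals mark matches to the letters above on either strand.
LAMA3 match (chr18:23872886-23872910, plus strand): ggcacaggcTGACTCAtgtgtgaag
LAMA3 match (chr18:23872942-23872966, plus strand): ttcctcaccTGAGTCAggcaggccc
LAMB3 match (chr1:209651426-209651450, minus strand): cagccactcTGACTCAttcactttg
LAMB3 window (chr1:209651395-209651624, minus strand): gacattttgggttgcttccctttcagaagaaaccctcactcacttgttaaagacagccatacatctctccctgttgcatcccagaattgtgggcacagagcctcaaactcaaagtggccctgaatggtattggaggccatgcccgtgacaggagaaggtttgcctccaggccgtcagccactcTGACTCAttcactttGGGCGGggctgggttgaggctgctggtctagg
LAMA5 window (chr20:62367313-62367562, minus strand): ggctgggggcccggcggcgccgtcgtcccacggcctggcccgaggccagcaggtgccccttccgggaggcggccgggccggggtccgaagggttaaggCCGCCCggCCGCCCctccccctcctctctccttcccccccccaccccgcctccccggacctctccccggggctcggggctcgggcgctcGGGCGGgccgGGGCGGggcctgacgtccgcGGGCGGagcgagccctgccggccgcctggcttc
LAMC1 window (chr1:183023170-183023419, plus strand): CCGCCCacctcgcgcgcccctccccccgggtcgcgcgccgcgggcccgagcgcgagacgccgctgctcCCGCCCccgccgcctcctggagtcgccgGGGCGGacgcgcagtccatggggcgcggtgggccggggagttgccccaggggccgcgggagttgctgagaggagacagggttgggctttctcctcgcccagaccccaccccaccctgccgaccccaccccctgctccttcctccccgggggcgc
In *LAMB3* the TGANTCA match began 67 bases before the start, and in *LAMA3* 2 matches began 125 and 69 bases before it. *LAMB3* had 3 entries, of which 1 held the match. The start of that entry, 209651374, lies inside the annotated gene, which begins at 209652466 on the minus strand. Starts of the entries without the match, 209652329 and 209652425, lie nearer to that end. *LAMA5* held 5 GGGCGG matches within 152 bases of its start, *LAMC1* held 3 and *LAMB2*, which also fell, held 1. *LAMA2*, which fell too, held 0, and *LAMB1*, lower but not called, held 4. *LAMA3* and each entry of *LAMB3*, which did not pass the test, held 1. A match describes letters and not binding. The *LAMA3* start is one inside the annotated gene, and 180 of the bases before it, those with both matches among them, lie in an exon in GENCODE 29.

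Of the laminin-binding integrin alpha chains, *ITGA6* rose while *ITGA3*, which was many times more abundant, was lower. *ITGA6* (ENSG00000091409, chromosome 2, 172427354 to 172506282, plus strand) pairs with *ITGB1* or, in hemidesmosomes, with *ITGB4*. It was at 6.76, 5.67 and 6.07 FPKM in TPC-1 and at 13.7, 12.8 and 13.0 FPKM in OE cells. All overexpressing libraries were above all control libraries, with a log2 fold change of 1.08 ± 0.0684 (95% confidence interval 0.93 to 1.24, adjusted p = 3.68e-06). The interval includes 1, so that a change of less than the fold threshold is within its error, and at a pseudocount of 1 the log2 fold change was 0.98. *ITGA3*, which pairs with *ITGB1* and binds laminins, was at 169, 154 and 165 FPKM in TPC-1 and at 130, 134 and 128 FPKM in OE cells. The ranges did not overlap, but *ITGA3* passed the adjusted p alone (log2 fold change -0.31 ± 0.0414, adjusted p = 2.32e-04). It remained the integrin alpha chain with the highest level, at 68.8% of the summed alpha FPKM in TPC-1 and 62.2% in OE cells. The ratio of *ITGA6* to *ITGA3* was 0.0379 ± 0.00191 and 0.101 ± 0.00471 (SD, n = 3, exact permutation p = 0.1). Since the ranges of these genes lay apart in opposite directions, the ratio had to differ and its p adds no support. *ITGA7*, the laminin receptor chain of muscle, had 1 to 5 reads per library and was not tested.

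*ITGB4*, the beta chain of the hemidesmosome, was barely detected, with fewer reads in OE cells. It had 39, 33 and 40 reads in TPC-1 and 5, 2 and 2 reads in OE cells, and reached the minimum for a test in no library. Relative to *ITGA6* its FPKM was 0.0511, 0.0512 and 0.0612 in TPC-1 and 0.00374, 0.00135 and 0.00143 in OE cells, with no overlap (exact permutation p = 0.1). Ranges of *ITGB4* and *ITGA6* already lay apart in opposite directions, so that this ratio had to differ. Without the filter on low values the log2 fold change of *ITGB4* was -1.76 (adjusted p = 0.00324), and that of *ITGA11* was -1.40 (adjusted p = 0.0173). Among other hemidesmosome and laminin adhesion genes, a list of 16 of which 13 were tested, 1 rose and 1 fell. The share called was 15.4%, beside 11.5% of all genes, and the median log2 fold change was 0.064. *BCAM*, a receptor of the immunoglobulin family that binds the *LAMA5* chain, was at 115, 107 and 112 FPKM in TPC-1 and at 19.6, 21.8 and 21.7 FPKM in OE cells. This was a fall of far more than the spread (log2 fold change -2.40 ± 0.0496, adjusted p = 2.17e-08). *SDC1*, a heparan sulfate proteoglycan of epithelial cells that binds laminins, was at 17.1, 16.0 and 16.9 FPKM in TPC-1 and at 58.2, 54.3 and 54.0 FPKM in OE cells (log2 fold change 1.73 ± 0.0432, adjusted p = 4.92e-08). The tetraspanin *CD151*, a partner of laminin-binding integrins, was at 101 and 105 FPKM on average and did not pass the test (adjusted p = 0.170). By the adjusted p alone, called genes included, 6 genes of the list were higher and 4 lower. The linkers *PLEC* (log2 fold change 0.33) and *DST* (0.43) and the hemidesmosomal collagen *COL17A1* (0.58) were on the higher side, and the tetraspanin *CD9* (-0.93), the matrix protein *MATN2* (-0.38) and dystroglycan (*DAG1*, -0.14), a laminin receptor, on the lower. Beside these genes the summed level of 6 epithelial markers was 42.9 to 47.1 FPKM in TPC-1 and 88.4 to 90.8 FPKM in OE cells, nearly all of it *KRT18*, the only one of the 3 tested that was called. *EPCAM*, *CDH1* and *KRT19* were near 0 in both groups, and the part of these markers in the result was not tested.

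The common beta chain *ITGB1* was higher, and was the integrin gene with the highest level in every library but TPC-1 replicate 1, where *ITGA3* exceeded it. It was at 164, 171 and 167 FPKM in TPC-1 and at 246, 238 and 242 FPKM in OE cells. The overexpressing libraries all exceeded the control libraries, and the change passed the adjusted p alone (log2 fold change 0.53 ± 0.0335, adjusted p = 3.61e-06). Its share of all integrin beta FPKM was 57.0%, 59.5% and 58.3% in TPC-1 and 73.5%, 73.4% and 73.6% in OE cells. The difference was 15.2 percentage points (exact permutation p = 0.1). *ITGB3* and *ITGB5*, most of the remaining beta FPKM, were lower with separate ranges. The share of *ITGB1* therefore had to differ, and its p adds no support. The FPKM of the alpha chains that pair with *ITGB1* was also summed and divided by that of *ITGB1*. This ratio was 1.45, 1.32 and 1.41 in TPC-1 and 0.844, 0.875 and 0.848 in OE cells (exact permutation p = 0.1). The ranges of *ITGB1* and of this alpha sum lay apart in opposite directions. The ratio therefore had to differ, and its p adds no support. All integrin alpha chains together were at 236 ± 7.04 FPKM in TPC-1 and 210 ± 1.69 FPKM in OE cells, and all beta chains at 287 ± 0.522 and 329 ± 4.77 FPKM (SD, n = 3). *ITGB1* shares 42 exonic bases with *ITGB1-DT*, a transcript read in the other direction.

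*ITGAV* pairs with *ITGB1*, *ITGB3*, *ITGB5*, *ITGB6* or *ITGB8*, receptors that bind vitronectin, fibronectin and latent TGF-beta through the RGD sequence. *ITGAV* was at 33.1, 37.0 and 36.3 FPKM in TPC-1 and at 36.6, 33.7 and 36.3 FPKM in OE cells. The ranges overlapped, and the log2 fold change was 0.0051 ± 0.0524 (95% confidence interval -0.12 to 0.13, adjusted p = 0.935), with a sign that turned when some libraries were left out. Its beta partners other than *ITGB1* were all lower where tested. *ITGB5*, a vitronectin receptor chain, was at 70.3, 66.1 and 68.1 FPKM in TPC-1 and at 52.4, 50.7 and 51.2 FPKM in OE cells (log2 fold change -0.41 ± 0.0347, adjusted p = 1.94e-05). *ITGB3*, which also pairs with *ITGA2B* on platelets, was at 49.0, 45.3 and 47.1 FPKM in TPC-1 and at 33.3, 33.1 and 32.9 FPKM in OE cells (log2 fold change -0.51 ± 0.0365, adjusted p = 7.54e-06). Neither gene's groups overlapped and neither reached the fold threshold. *ITGB3* shares 2266 exonic bases, 51.6% of its own, with *AC068234.1* on the same strand, which was at 0 FPKM on average in both groups. How reads in shared bases were counted is not given in the sources used here. The level of *ITGB3*, the summed beta FPKM and the share of *ITGB1* carry this limit. *ITGB8* (ENSG00000105855, chromosome 7, 20330702 to 20415754, plus strand), whose receptor with *ITGAV* binds latent TGF-beta, was at 3.28, 4.09 and 3.59 FPKM in TPC-1 and at 1.68, 1.58 and 1.66 FPKM in OE cells. The OE libraries all lay below the TPC-1 libraries, and it fell by 1.10 on the log2 scale (SE 0.0978, 95% confidence interval -1.33 to -0.88, adjusted p = 2.38e-05). That interval includes -1, and at a pseudocount of 1 the log2 fold change was -0.81. *ITGB6*, the epithelial TGF-beta activating chain, had 1 to 7 reads in TPC-1 and 8 to 17 reads in OE cells and was not tested.

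The fibronectin receptor chain *ITGA5* was at 23.5, 21.5 and 22.1 FPKM in TPC-1 and at 19.9, 21.6 and 21.0 FPKM in OE cells. The ranges overlapped and it did not pass the adjusted p (log2 fold change -0.10 ± 0.0474, adjusted p = 0.0946), although it did when values were scaled to library totals (log2 fold change -0.16, adjusted p = 0.0122). *ITGA2B*, the platelet chain, had 7 to 11 reads in TPC-1 and 0 to 2 reads in OE cells. *ITGA8* had 0 reads in all 6 libraries. *ITGA4* and *ITGA9*, which bind VCAM-1 or tenascin, had at most 5 reads in any library. None of these was tested. Beside *ITGA2B* and *ITGB3*, 2 of 4 platelet and megakaryocyte markers had 0 reads throughout. The summed level of the 4 was 0.719 to 1.31 FPKM in TPC-1 and 0.502 to 0.840 FPKM in OE cells. Most of it was *GP1BA* (0.971 and 0.605 FPKM on average), which was tested and not called.

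Collagen-binding alpha chains, all of them partners of *ITGB1*, differed among themselves in direction. *ITGA2* was at 3.36, 3.68 and 3.60 FPKM in TPC-1 and at 5.27, 5.24 and 5.55 FPKM in OE cells, higher at the adjusted p alone (log2 fold change 0.58 ± 0.0635, adjusted p = 7.93e-05). *ITGA1* was at 2.19, 2.59 and 2.67 FPKM in TPC-1 and at 1.29, 1.31 and 1.35 FPKM in OE cells, lower at the adjusted p alone (log2 fold change -0.86 ± 0.104, adjusted p = 1.35e-04). Neither pair of ranges overlapped, and the genes lie 30.1 kb apart on chromosome 5, read in the same direction. Their ratio, *ITGA2* to *ITGA1*, was 1.43 ± 0.0926 in TPC-1 and 4.07 ± 0.0484 in OE cells (SD, n = 3, exact permutation p = 0.1). With separate ranges in opposite directions this ratio had to differ, so its p adds no support. *ITGA1* shares 475 exonic bases with *PELO* on the same strand, whose log2 fold change was 0.10 (adjusted p = 0.198). *ITGA10* had 31 to 36 reads in TPC-1 and 13 to 17 reads in OE cells, and *ITGA11* had 56 to 102 and 16 to 24 reads. Both were below the minimum for a test, and for both the OE libraries were the lower ones.

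Leukocyte integrin chains were low or absent. *ITGAL* (ENSG00000005844, chromosome 16, 30472658 to 30523185, plus strand), the alpha chain of LFA-1, was at 0.713, 0.606 and 0.640 FPKM in TPC-1, from 66 to 77 reads, and at 0.0748, 0.0361 and 0.0388 FPKM in OE cells, from 4 to 7 reads. The overexpressing libraries lay far below the control libraries (log2 fold change -2.34 ± 0.231, adjusted p = 4.44e-05). The size of this fold depends on the pseudocount, since it was -0.65 at a pseudocount of 1, where *ITGAL* was not called, and -3.73 when the reads behind the values were fitted with voom, limma's model for counts. Its beta partner *ITGB2* was at 0.397, 0.630 and 0.406 FPKM in TPC-1 and at 0.753, 0.678 and 0.850 FPKM in OE cells. It was higher at the adjusted p alone (log2 fold change 0.59 ± 0.200, adjusted p = 0.0290) and did not pass it without any of TPC-1 replicates 1 and 3 and OE replicates 1 and 3 (adjusted p 0.0609 to 0.0890). *ITGB2* shares 303 exonic bases with *ITGB2-AS1* on the opposite strand, which reached the minimum in OE cells alone and rose by 2.40 on the log2 scale. *ITGAE*, found on lymphocytes within epithelia, was at 2.12, 1.84 and 2.14 FPKM in TPC-1 and at 2.60, 2.46 and 2.40 FPKM in OE cells, higher at the adjusted p alone (log2 fold change 0.28 ± 0.0915, adjusted p = 0.0251). Without TPC-1 replicate 2, or without OE replicate 1 or 2, its adjusted p was 0.0751, 0.0751 and 0.0555. It shares 427 exonic bases with *HASPIN* on the opposite strand, whose log2 fold change was 0.94.

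The myeloid alpha chains *ITGAM*, *ITGAX* and *ITGAD* and the beta chain *ITGB7* had at most 11 reads in any library and were not tested. *ITGB7* shares 1886 exonic bases with *ZNF740* on the opposite strand. Of 10 leukocyte markers, a list that includes *ITGAM*, 5 had 0 reads in all 6 libraries and none was tested. *CD3E* and *MS4A1* were among those at 0, and *PTPRC* had 1 read in each of 2 OE libraries and 0 in the rest. Their summed level was 0.349 to 0.676 FPKM in TPC-1 and 0.202 to 0.312 FPKM in OE cells. *CD14* was the largest part of this sum (0.386 and 0.146 FPKM on average), whereas *ITGAM* was higher in OE cells (0.0108 and 0.0716 FPKM). The summed level of 6 fibroblast markers was 0.844 to 0.977 FPKM in TPC-1 and 0.430 to 0.583 FPKM in OE cells, with *COL1A2*, *COL3A1* and *DCN* at 0 reads. Most of it was *COL1A1* (0.816 and 0.501 FPKM on average), which was tested and not called. For 6 endothelial markers the sum was 1.10 to 1.37 FPKM in TPC-1 and 0.473 to 0.542 FPKM in OE cells. *PECAM1*, the only one of them tested, reached the minimum in TPC-1 alone and therefore had to differ, and fell. It was at 0.924 and 0.0588 FPKM on average. *TEK* went the other way, from 0.261 to 0.397 FPKM on average, as did *VWF*, with at most 7 reads in any library. *CDH5*, *KDR* and *CLDN5* had at most 3 reads in any library. The part of these cell types in the result for *LAMA2* or *ITGAL* was not tested.

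**Figure D3:**
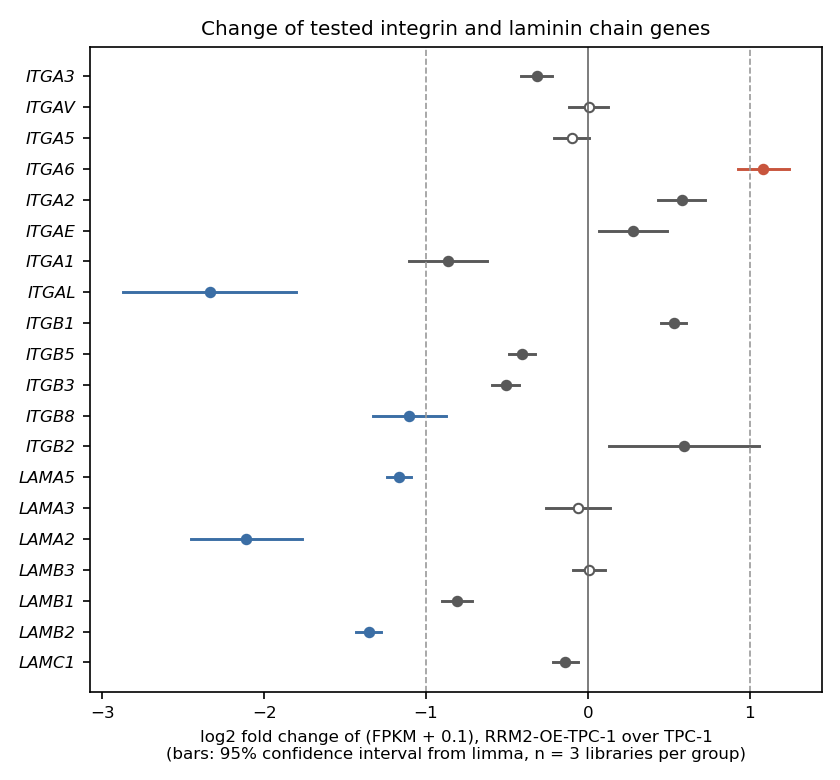
Log2 fold change of (FPKM + 0.1) of 20 tested chain genes in OE cells over TPC-1, with 95% confidence intervals from limma (n = 3 libraries per group), ordered as in the plot of FPKM by library. Red and blue mark genes called higher and lower, filled grey points passed the adjusted p alone, open points did not, and dashed lines stand at -1 and 1, which the intervals of *ITGA6*, *ITGB8*, *ITGA1* and *ITGB2* include.

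Genes around the chains were described from hand-written lists. Beside the counts of these lists, 11.5% of all 13621 genes tested were called. At the adjusted p alone 4758 were higher and 4449 lower. Of basement membrane partners, 18 of 30 were tested, 2 fell and 0 rose, with a median log2 fold change of -0.16. The share called, 11.1% of those tested, was near that of all genes. *NTNG2* and *NTNG1*, membrane-anchored relatives of laminin short arms, fell by 2.26 and 1.06 on the log2 scale (adjusted p = 1.49e-06 and 5.36e-07). *NTNG2* went from 3.19 ± 0.177 to 0.590 ± 0.0756 FPKM and *NTNG1* from 12.6 ± 0.321 to 5.99 ± 0.140 FPKM (SD, n = 3). Counting called genes, 9 were lower at the adjusted p alone, among them perlecan (*HSPG2*, log2 fold change -0.94), *NID2* (-0.83), which bridges laminin and collagen IV, and *COL4A5* (-0.86). On the same criterion 4 were higher, among them *COL4A1* (0.39) and *COL4A2* (0.16). Nidogen-1 (*NID1*, 22.8 and 21.6 FPKM) and agrin (*AGRN*, 175 and 169 FPKM) did not pass it.

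Of other integrin ligands, 24 of the 48 found in the table were tested, 1 rose and 4 fell (20.8% called, median log2 fold change -0.17). *THBS1*, thrombospondin-1, was at 169, 173 and 164 FPKM in TPC-1 and at 390, 386 and 391 FPKM in OE cells (log2 fold change 1.21 ± 0.0348, adjusted p = 9.25e-08). Its relative *THBS3* fell from 6.26 to 1.75 FPKM on average, a log2 fold change of -1.78. Osteopontin (*SPP1*), a ligand of *ITGAV* receptors, fell from 91.3 to 36.2 FPKM (-1.33), tenascin-C (*TNC*) from 21.4 to 9.60 FPKM (-1.15) and *MFGE8*, a bridge to *ITGAV* receptors, from 39.5 to 18.9 FPKM (-1.06). Their adjusted p-values lay between 1.26e-07 and 4.55e-07. Fibronectin (*FN1*) was at 415 and 449 FPKM on average and did not pass the adjusted p (log2 fold change 0.12, adjusted p = 0.0558).

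Inside the cell, 51 of 57 genes of integrin activation and focal adhesions were tested, and 3 rose and 4 fell. The share called was 13.7%, beside 11.5% of all genes, and the median log2 fold change was 0.20. *NEXN*, an actin filament binding protein, went from 4.47 ± 0.182 to 15.5 ± 0.625 FPKM (log2 fold change 1.77, adjusted p = 9.99e-08), *LPXN*, a paxillin relative, from 2.02 ± 0.190 to 4.95 ± 0.688 FPKM (1.25, adjusted p = 3.19e-05) and *FERMT1*, the kindlin of epithelial cells, from 2.67 ± 0.118 to 5.64 ± 0.272 FPKM (1.05, adjusted p = 4.39e-06). The docking protein *NEDD9* fell by 2.67 on the log2 scale (1.74 ± 0.0666 to 0.192 ± 0.0598 FPKM), and reached the minimum in TPC-1 alone. *PTK2B*, a kinase related to focal adhesion kinase (log2 fold change -1.69), the tensin *TNS2* (-1.64) and the talin-binding protein *KANK2* (-1.11) fell as well. Most genes of the list changed by less than the threshold. By the adjusted p alone, called genes included, 31 were higher and 14 lower, such as talin-1 (*TLN1*, log2 fold change 0.19), *VCL* (0.27) and *PXN* (0.43) on one side and focal adhesion kinase (*PTK2*, -0.20) and *SRC* (-0.22) on the other. Of 24 genes for trafficking and processing of integrins and laminins, 20 were tested and 1, the chaperone *CALR*, rose (162 ± 2.78 to 362 ± 6.83 FPKM, log2 fold change 1.16 ± 0.0339, adjusted p = 9.74e-08). In that list 5% of the tested genes were called. The median of that list was 0.21, with 12 genes higher and 5 lower at the adjusted p alone.

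**Figure D4:**
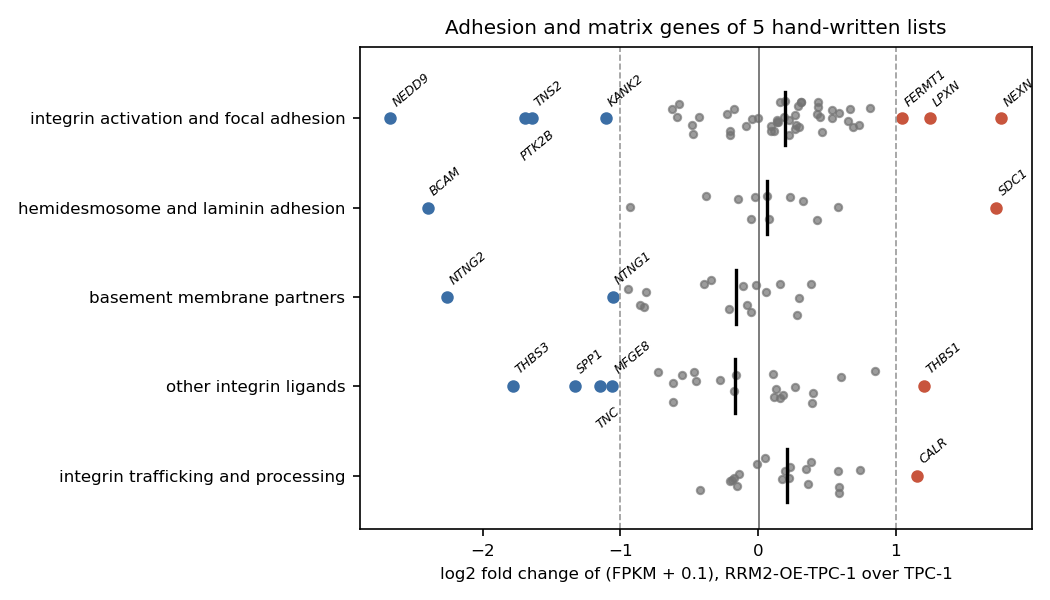
Log2 fold change of (FPKM + 0.1) of the tested genes in the 5 hand-written lists, with 1 point per gene, called genes in red (higher) or blue (lower) with their symbols, grey points for genes not called, and a black bar at the median of each list. The thin line marks the median of all tested genes, 0.011, the dashed lines -1 and 1, and vertical scatter within a row carries no meaning.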

How the data were processed

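Poly(A) mRNA of 3 TPC-1 and 3 *RRM2*-OE-TPC-1 libraries was sequenced according to the methods, but per the labels ribosomal RNA was depleted and linear RNA digested with RNase R, which would change what a library holds. The authors aligned reads with HISAT2 2.0.5, counted them per gene with featureCounts 1.5.0 on GRCh38.p14, per the submitters' processing notes, and deposited FPKM. The methods describe these as counts divided by gene length and sequencing depth. All 58735 gene identifiers matched GENCODE 29, with the same start and end. Multiplied by gene length, 100% of values were whole multiples of a single step (tolerance 0.05 reads), which gave back the reads behind each value, 14317091 to 17084067 per library. The depth behind the values was 1.03, 1.05 and 1.05 times these reads in TPC-1 replicates 1 to 3. In OE replicates 1 to 3 it was 1.01, 1.00 and 0.997 times these reads. The depth was therefore not the plain total of reads on genes. All 6 value columns were mapped to samples.

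Tests used log2(FPKM + 0.1) in limma 3.58.1 (R 4.3.3; lmFit, eBayes with a variance trend, Benjamini-Hochberg adjustment over all 13621 genes tested), without the replicate number as a term. Genes needed 0.5 FPKM and 10 reads in at least 3 libraries. The procedure was tested on simulated data. Ratios and shares of summed FPKM were compared with a two-sided exact permutation test over libraries (scipy 1.17.1), in Python 3.11.15 with numpy 2.4.6, pandas 2.3.3 and matplotlib 3.10.9. The DESeq2 test that the authors ran on counts was not repeated.

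The members, the 5 lists and the marker lists were chosen with earlier results of these data known. Members are named, but results for part of the genes are not reported here. Values of each library are given for members past both thresholds, for the 3 alpha, 3 beta and 3 laminin chains with the highest mean FPKM, and, beyond that rule, for other tested members. Of each list, called genes with the 3 largest changes in each direction are named, and *KANK2*, *MFGE8*, uncalled list genes and overlapping neighbours were named after their values were seen. Ratios of *ITGA6* to *ITGA3* and *ITGA2* to *ITGA1*, the class sums and the shares of *LAMA5* and *ITGA3* were likewise added after seeing the data.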

Additional observations from a re-analysis of the deposited data

How the results depend on the processing

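The choice of threshold and pseudocount mattered most. At a pseudocount of 1 the called integrin chains numbered 0 instead of 3 (*ITGA6* 0.98, *ITGB8* -0.81, *ITGAL* -0.65), basement membrane partners 1 instead of 2 and all genes 716 instead of 1560, and *LAMA2* (-0.89) was no longer called. A pseudocount shrinks the fold of low genes by construction. With no filter 5 integrin chains were called of 25 tested. The adjusted p alone gave 11 integrin chains, 9207 genes in all, 45 focal adhesion, 10 hemidesmosome, 13 basement membrane, 20 ligand and 17 trafficking genes. A test against an absolute change of 1 (treat) gave 1, 618, 4, 1 (basement membrane) and 3 (ligands), and *ITGA6* (1.08) and *ITGB8* (-1.10) were no longer called. The laminin count stayed within 1.5 times 4 under every alternative run.

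With 1 library left out the counts were 2 to 3 integrin and 3 to 4 laminin chains, 1311 to 1473 of all genes, 6 to 7 focal adhesion genes, and 2, 2, 5 and 1 in the other lists. Without any of the TPC-1 libraries *ITGAL* and *LAMA2* reached the minimum in too few libraries to be tested. The differences in composition ranged from 14.6 to 15.9 percentage points for *ITGB1*, -7.75 to -7.36 for laminin alpha chains, -0.0540 to -0.0490 for *ITGB4* to *ITGA6* and -0.58 to -0.51 for the partner ratio.

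Signs turned for 3 genes that passed no test. *LAMB3* was at -0.053 with library totals and with voom, and from -0.035 to 0.035 with 1 library left out. *ITGAV* was at -0.053 and -0.054, and from -0.044 to 0.042. *LAMA3* was from -0.11 to 0.0096. Library totals replaced the authors' depths, whose ratio to the reads on genes was higher in every TPC-1 library than in every OE library. The cause of the turns with 1 library left out was not tested. Library totals moved the median of all genes from 0.011 to -0.046, that of integrin chains from -0.10 to -0.16 and that of hemidesmosome genes from 0.064 to 0.0064. The last was 0.036 without TPC-1 replicate 2, the ligand median was -0.099 without OE replicate 3 and the basement membrane median was -0.10 without the filter. Libraries with the same replicate number did not deviate together (correlations -0.011, -0.0060 and -0.055), and with the replicate block the counts were 3 integrin and 4 laminin chains, 1566 of all genes and 7, 2, 2, 5 and 1 in the lists. *ITGB2* did not pass the adjusted p under the block (0.0544), without the filter (0.131) or with the FPKM minimum alone (0.0724), and *ITGAE* did not without the filter (0.0564) or with library totals (0.0593). The 17 untested chains had a mean of at most 0.293 FPKM, and *ITGA10* and *ITGA11* passed the read minimum in all libraries but not the FPKM minimum.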
